A study of Mus musculus with 12 samples.

Results

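Fatty acid oxidation breaks long acyl chains down to acetyl-CoA, and hepatocytes turn part of that acetyl-CoA into ketone bodies for other organs. Mitochondria take up acyl groups through the carnitine shuttle and shorten them by β-oxidation, peroxisomes shorten very long and branched chains, and microsomal Cyp4a enzymes oxidise the far end of the chain. In rodent liver many of these genes are turned on by the fatty acid receptor PPARα during fasting. Described here are 31 such genes, chosen by symbol from the 46095 genes of a read count table, and all 31 were found in it. The libraries came from liver tumours (hepatocellular carcinoma) that had been induced with the carcinogen diethylnitrosamine (DEN). Of the 12 libraries, 7 were from Pck1-null mice (KO) and 5 from WT mice, and both groups had the same DEN model. Pck1 makes the cytosolic enzyme that commits oxaloacetate to glucose synthesis, and the study asked how its loss alters the tumour transcriptome. No label gives the Pck1 allele, the tissue in which it was deleted, or the age, sex, strain and feeding state of the mice, nor do they state that each library was a separate animal.

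Levels are given as CPM, read counts scaled to the size of each library, after TMM scaling for library composition. Total counts lay between 17462102 and 23663506 in 7 shallower libraries (KO replicates 1, 2, 3 and 7, and WT replicates 1, 3 and 4) and between 43071365 and 46747125 in 5 deeper ones (KO replicates 4, 5 and 6, and WT replicates 2 and 5). Xist, which coats the inactive X in female cells, was at 90.9 to 167 CPM in 5 KO libraries (replicates 1, 2, 3, 5 and 6) and 1 WT library (replicate 4), and at most 0.702 CPM in the other 6 libraries. Pck1 had 111 to 1165 CPM in KO and 1061 to 5816 CPM in WT, so that the groups overlapped, and a log2 fold change of −3.28 ± 0.67 (SE; adjusted p = 0.170, edgeR). The hepatocyte markers summed to 64676 to 158143 CPM in KO and 62135 to 211185 CPM in WT, with 11 of the 12 markers in the table and none at 0. Adipocyte and muscle markers, from other tissues that store or burn fat, summed to at most 14.5 CPM in KO and 6.91 CPM in WT, and the muscle genes Myh6 and Myl2 were at 0 throughout.

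Between the genotypes, 0 of the 30 members that passed the filter on low counts passed the test, either at an adjusted p under 0.05 or at an unadjusted p under 0.05 (edgeR's quasi-likelihood test). Among all 14666 genes tested, 14.7% had an unadjusted p under 0.05 and 0% an adjusted one. The exact permutation test of single genes, which has 792 regroupings of the libraries, gave 13.7% of all genes and 0 members a p under 0.05. In 0 members did the KO and WT libraries separate without overlap, against 1.21% of all genes tested. The fitted log2 fold changes of KO over WT were positive in 15 members and negative in 15, with a median of −0.02, beside a median of 0.03 and 53.7% positive over all genes. The other tools run gave more: DESeq2 had 2 members at an unadjusted p under 0.05 (17.7% of all genes) and 0 at an adjusted one (3.33%). Limma-voom with sample weights had 9 at an unadjusted p (33.2%) and 2 at an adjusted one (14.6%), namely Acad10, lower in KO, and Acot2, higher in KO. Its weights ran from 0.354 for KO replicate 5 to 3.82 for WT replicate 5. Without weights 1 member, Acot2, had an unadjusted p under 0.05, as did 2171 of all 14666 genes.

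**Figure D1:**
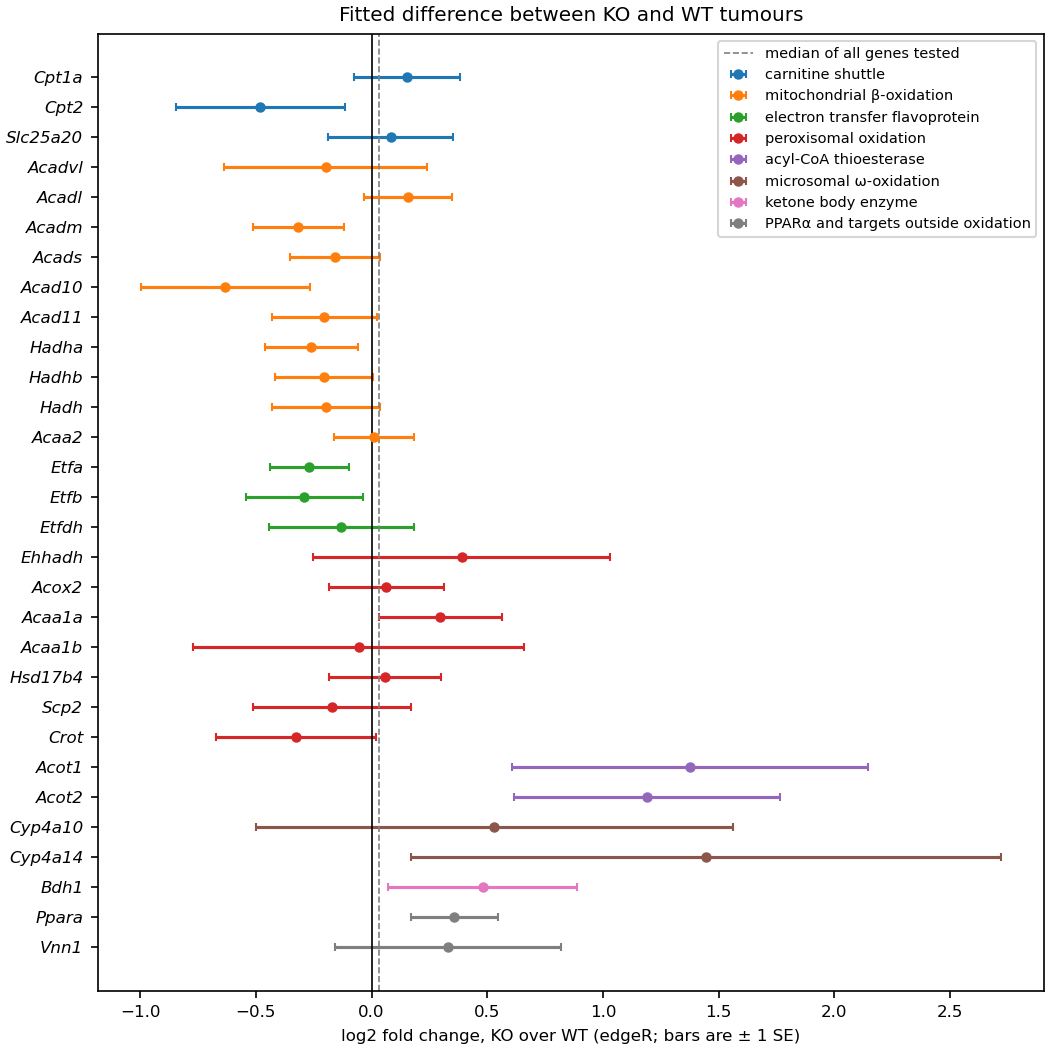
Fitted log2 fold change of KO over WT for the 30 members tested, grouped by role, with bars of 1 SE (12 libraries; x axis in log2 units). Mitochondrial and electron transfer members lie mostly left of 0, and the 2 thioesterases and the 2 Cyp4a genes lie right of 0 with wide bars.

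By role, most mitochondrial members had negative values and both thioesterases positive ones, none with an unadjusted p under 0.05 in edgeR's test. The 10 genes of mitochondrial β-oxidation had 2 positive and 8 negative values (median −0.20), and the 3 genes of electron transfer had 0 positive and 3 negative (median −0.27). The 7 peroxisomal genes were split, 4 positive and 3 negative (median 0.06), and the carnitine shuttle had 2 positive and 1 negative (median 0.08). Both thioesterases were positive (median 1.28), as were both Cyp4a genes (median 0.99), the ketone body enzyme Bdh1 and the 2 tested genes of the last role, Ppara and Vnn1. As a mean level of its members in a library, mitochondrial β-oxidation was at 6.84 ± 0.39 log2 CPM (mean ± SD) over the 7 KO libraries and 7.07 ± 0.27 over the 5 WT libraries. Peroxisomal oxidation was at 8.33 ± 0.68 log2 CPM in KO and 8.42 ± 0.50 in WT in the same terms. Each of these differences in mean level is smaller than the SD within either group. In bulk tumour RNA, fewer cells of a type and less RNA per cell cannot be told apart.

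The carnitine shuttle carries long acyl groups across the inner mitochondrial membrane. Cpt1a, which makes the acylcarnitine and is the controlled step of liver fat oxidation, had KO values between 286 (replicate 1) and 662 CPM (replicate 6) around a median of 516 CPM, while WT replicates 1 to 5 had 365, 445, 483, 343 and 486 CPM. KO replicates lay on both sides of the WT range, 4 above and 2 below, and Cpt1a averaged 8.82 ± 0.47 log2 CPM (mean ± SD) over the 7 KO libraries and 8.71 ± 0.23 over the 5 WT libraries. The fitted difference, given throughout as the log2 fold change of KO over WT ± SE, was 0.16 ± 0.23 (unadjusted p = 0.511, exact permutation p = 0.638). Cpt2, which returns the acyl group to CoA on the inner side, had KO values between 39.1 (replicate 5) and 147 CPM (replicate 6) around a median of 66.6 CPM, while WT replicates 1 to 5 had 52.5, 175, 73.2, 102 and 173 CPM. WT replicates 2 and 5, both deeper libraries, were the highest of all 12 for Cpt2, and KO replicate 5 was the lowest. Its fitted difference was −0.48 ± 0.36, or 0.12 within the shallower and −1.09 within the deeper libraries. Slc25a20, the carrier that exchanges acylcarnitine for carnitine, spanned 58.3 to 166 CPM in KO and 57.9 to 130.2 CPM in WT, at 0.08 ± 0.27.

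In the mitochondrial spiral itself, the acyl-CoA dehydrogenases take the first step, each for its own chain length. Acadm, the medium-chain enzyme, had KO values between 158 (replicate 3) and 280.1 CPM (replicate 6) around a median of 199.9 CPM, while WT replicates 1 to 5 had 181, 306, 192, 349 and 279 CPM. WT replicates 4 and 2 had the highest Acadm values, KO replicate 6 came next, and the groups overlapped. Its fitted difference was −0.32 ± 0.20 (unadjusted p = 0.134, exact permutation p = 0.164), and it was negative within the shallower (−0.30) and the deeper libraries (−0.36). Acadl, the long-chain enzyme, was at 0.16 ± 0.19 and spanned 123 to 209.7 CPM in KO and 102 to 205 CPM in WT. Acads, for short chains, was at −0.16 ± 0.20 and spanned 123 to 221 CPM in KO and 138 to 231 CPM in WT. Acad11, whose human form prefers very long chains, was at −0.20 ± 0.23. Acad10, a less studied relative, had the most negative value of the members, −0.63 ± 0.37 (unadjusted p = 0.108), with 10.9 to 43.4 CPM in KO and 18.5 to 58.8 CPM in WT. It was at 0.02 within the shallower and −1.42 within the deeper libraries, and 17.3% of its transcript words of 50 bases also occur in other genes, mainly its neighbour Acad12.

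Acadvl, the very-long-chain dehydrogenase of the inner membrane, had few reads for a liver oxidation gene. It spanned 2.26 to 16.4 CPM in KO and 6.46 to 14.9 CPM in WT, and per exonic length it averaged 3.60 CPM per kilobase in KO and 4.13 in WT, against 90.2 CPM per kilobase in KO and 80.8 in WT for Acadl. Of the exonic bases of Acadvl, 42.9% lie over exons of Dvl2 on the opposite strand (GENCODE M21, GRCm38). How reads in such an overlap were counted is not stated, and its part in the low count was not tested. The fitted difference of Acadvl was −0.20 ± 0.44, and KO replicate 5 had the lowest value. Etfb also overlaps other genes, with 58.2% of its exonic bases shared with the gene Gm45233 and the microRNA Mir7051. Its level was not low, at 241 CPM per kilobase in KO and 295 in WT.

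Hadha and Hadhb make the α and β subunits of the mitochondrial trifunctional protein, which completes the cycle for long chains. Hadha had KO values between 188 (replicate 3) and 343 CPM (replicate 6) around a median of 231 CPM, while WT replicates 1 to 5 had 235, 349.7, 244, 372 and 332 CPM. In 4 KO replicates it lay below every WT library and in none above, while the other 3 fell inside the WT range. Hadha differed by −0.26 ± 0.20 (exact permutation p = 0.192) and Hadhb by −0.20 ± 0.21, with Hadhb at 33.7 to 78.7 CPM in KO and 49.3 to 89 CPM in WT. The RefSeq starts of the 2 genes lie 273 bases apart, and the genes point away from each other on mouse chromosome 5. The Hadhb window is shown because the 2 windows overlap. The Hadhb window of 300 bases (chr5:30155003-30155302, plus strand, RefSeq, GRCm38.p6; 250 bases before to 50 after the start) reads as follows, with capitals for the 228 bases that also lie in the Hadha window.
Hadhb promoter: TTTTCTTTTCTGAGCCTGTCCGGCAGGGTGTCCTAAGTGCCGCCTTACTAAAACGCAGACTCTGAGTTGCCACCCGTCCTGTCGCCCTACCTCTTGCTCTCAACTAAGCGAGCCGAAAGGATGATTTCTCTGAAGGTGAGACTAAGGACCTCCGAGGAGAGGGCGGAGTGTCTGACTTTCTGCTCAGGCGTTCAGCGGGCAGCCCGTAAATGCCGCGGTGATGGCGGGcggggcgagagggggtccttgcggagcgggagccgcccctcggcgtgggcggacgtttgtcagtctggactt
The ratio of Hadha to Hadhb CPM stayed between 3.02 in KO replicate 3 and 6.01 in KO replicate 5, and within 4.18 to 4.95 in the WT libraries. Of the Hadhb transcript words of 50 bases, 19.7% also occur elsewhere, mainly in the genes Gm13910 and Gm9108. Hadh, the dehydrogenase for shorter chains, was at −0.20 ± 0.23 with 161 to 325 CPM in KO and 180.1 to 336 CPM in WT. Acaa2, the thiolase that releases acetyl-CoA, had the highest level per exonic length of the members, 432 CPM per kilobase in KO and 428 in WT. Its fitted difference was the nearest to 0 of the members, at 0.01 ± 0.17, with 494 to 825 CPM in KO and 565 to 705 CPM in WT.

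The electron transfer flavoprotein and its dehydrogenase pass electrons from the acyl-CoA dehydrogenases to ubiquinone. Etfdh, the membrane-bound dehydrogenase, had KO values between 57.7 (replicate 5) and 243 CPM (replicate 6) around a median of 164 CPM, while WT replicates 1 to 5 had 122, 253, 110.1, 172 and 215 CPM. KO replicate 5 was the lowest of all 12 libraries, and the other 6 KO libraries overlapped WT. Its fitted difference was −0.13 ± 0.31 (exact permutation p = 0.682). Etfb, the β subunit, had KO values between 151 (replicate 5) and 380.5 CPM (replicate 6) around a median of 295 CPM, while WT replicates 1 to 5 had 246, 432, 379, 217 and 442 CPM, and differed by −0.29 ± 0.25. WT replicates 2 and 5 were the highest for Etfb and KO replicate 5 the lowest. Etfa, the α subunit, differed by −0.27 ± 0.17 (unadjusted p = 0.144), with 4 KO libraries below all of WT and 159 to 295 CPM in KO and 228 to 335 CPM in WT.

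**Figure D2:**
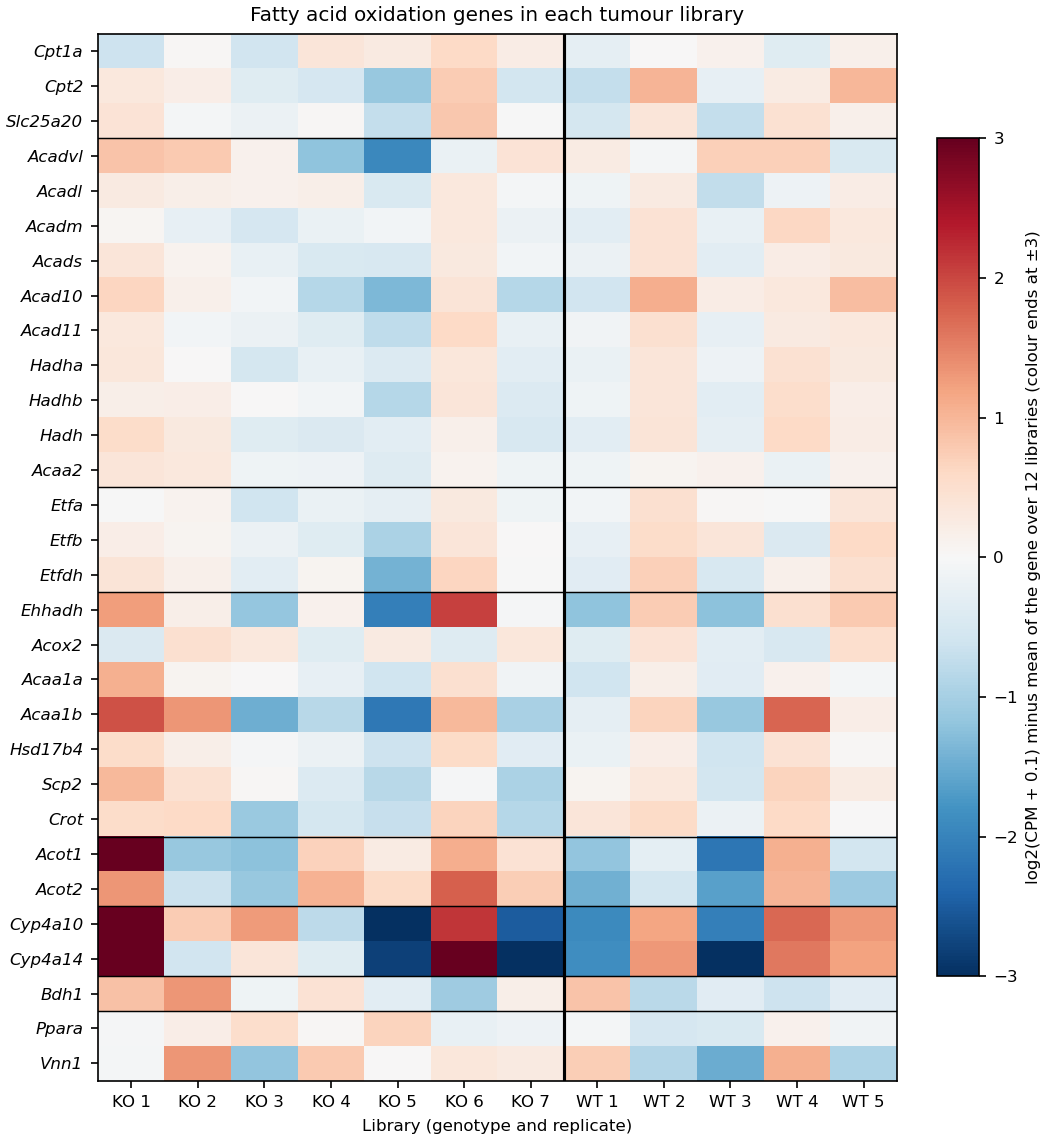
Each row is 1 of the 30 members tested and each column a library, KO left of WT, with horizontal lines between roles; colour is log2(CPM + 0.1) minus the mean of the gene over the 12 libraries. The columns of KO replicates 1 and 6 are red and those of KO replicate 5 and WT replicate 3 are blue over most rows, and the widest contrasts lie in Ehhadh, Acaa1b, Acot1, Acot2 and the Cyp4a genes.

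Libraries of the same genotype were often far apart. KO replicate 5 had the lowest value of the 12 libraries in 14 of the 30 members, KO replicate 6 the highest in 9 and KO replicate 1 the highest in 7. Over the WT libraries, replicate 3 was the lowest of all 12 in 5 members and replicate 2 the highest in 5. The SD of log2 CPM was larger in KO than in WT for 22 members and larger in WT for 8, beside 61.0% of all genes tested with the larger SD in KO. The number of KO libraries is higher and the 2 SDs were not tested against each other. KO replicate 5 also held the lowest sum of the 6 pericentral hepatocyte markers, 83.4 CPM, where the other KO libraries had 2226 to 33645 CPM and the WT libraries 872 to 6955 CPM. Its 6 cholangiocyte markers summed to 4307 CPM, against 25.7 to 737 CPM in the other KO libraries and 152 to 971 CPM in WT. No pericentral and no cholangiocyte marker was at 0 in all libraries. Its hepatocyte markers had the highest sum of the KO libraries, 158143 CPM. The part of these marker sums in the low oxidation genes of this library was not tested.

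Peroxisomal members carried both wide and narrow spreads. Ehhadh, the bifunctional enzyme of the inducible peroxisomal pathway, had KO values between 78.6 (replicate 5) and 1344 CPM (replicate 6) around a median of 357 CPM, while WT replicates 1 to 5 had 141, 551, 137, 456 and 561 CPM. The highest values were in KO replicates 6 and 1, the lowest in KO replicate 5, and WT fell into replicates 2, 4 and 5 high and replicates 1 and 3 low. It averaged 8.40 ± 1.37 log2 CPM (mean ± SD) over the 7 KO libraries and 8.26 ± 1.05 over the 5 WT libraries, which differ by 0.13 (exact permutation p = 0.851), and the fitted fold change was 0.39 ± 0.64. Acaa1b, 1 of 2 peroxisomal thiolases, had KO values between 76.5 (replicate 5) and 1292 CPM (replicate 1) around a median of 192 CPM, while WT replicates 1 to 5 had 281, 539, 155, 1142 and 394 CPM. KO replicates 1 and 2 and WT replicate 4 were the highest, and KO replicates 5 and 3 the lowest. Its fitted difference was −0.05 ± 0.71, and −0.91 once the Xist class entered the fit. Its close relative Acaa1a varied less, at 118 to 373 CPM in KO and 119 to 202 CPM in WT (0.30 ± 0.27). The 2 thiolase genes share sequence: 39.6% of the 50-base transcript words of Acaa1b also occur in other genes, mainly Acaa1a, so their reads can be divided between them.

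Scp2, whose products carry sterols and also act as a thiolase for branched chains, had KO values between 552 (replicate 7) and 2110.2 CPM (replicate 1) around a median of 1038 CPM, while WT replicates 1 to 5 had 1140.5, 1331, 729, 1703 and 1273 CPM. KO replicate 1 was above all WT libraries, KO replicate 2 above 4 of 5, and KO replicates 5 and 7 below all of them. KO replicates 1, 2 and 3 also had the largest pericentral marker sums (33645, 20449 and 24683 CPM). Of these, KO replicate 3 had 1105 CPM of Scp2. WT replicate 4, the highest WT library for Scp2, had a pericentral sum of 1034 CPM. The part of these sums in the Scp2 values was not tested. The Scp2 difference was −0.17 ± 0.34 (exact permutation p = 0.467), and 29.7% of its 50-base words occur in other genes, first the pseudogene Scp2-ps2. Crot, which makes medium-chain acylcarnitines for export from the peroxisome, was at −0.33 ± 0.35 with 2 KO libraries above and 4 below all of WT. Hsd17b4, the D-bifunctional protein, was at 0.06 ± 0.24, and Acox2, the oxidase for bile acid precursors and branched chains, at 0.06 ± 0.25. Acox2 lay within 197 to 391 CPM in every library, and no KO library was outside the WT range. Within the shallower libraries Acox2 was at 0.60 and within the deeper ones at −0.60.

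Acot1 and Acot2 encode acyl-CoA thioesterases, of the cytosol and of mitochondria, which release free fatty acids from CoA. Acot2 had the smallest p of all members. It had KO values between 6.45 (replicate 3) and 49.4 CPM (replicate 6) around a median of 23.6 CPM, while WT replicates 1 to 5 had 5.17, 9.64, 4.56, 28.9 and 6.61 CPM. KO replicates 1, 4 and 6 lay above all WT libraries and KO replicates 5 and 7 above all but WT replicate 4, while KO replicates 2 and 3 fell among the low WT libraries. Acot2 averaged 4.36 ± 1.05 log2 CPM (mean ± SD) over the 7 KO libraries and 3.09 ± 1.07 over the 5 WT libraries. The fitted difference was 1.19 ± 0.58 (unadjusted p = 0.0600, adjusted p = 0.363; exact permutation p = 0.0732). Acot1 had KO values between 6.25 (replicate 3) and 123 CPM (replicate 1) around a median of 20.1 CPM, while WT replicates 1 to 5 had 6.50, 12, 3.23, 31.1 and 10.1 CPM, at 1.38 ± 0.77 (unadjusted p = 0.0974, exact permutation p = 0.198). KO replicate 1 stood far above the rest, and its removal brought Acot1 to 0.49, the lowest value with 1 library left out.

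WT replicate 4, the only WT library with high Xist, was the high WT library for both thioesterases. Leaving out the highest WT library raises such values by design, and without it Acot2 was at 1.94 and Acot1 at 2.03. Within the 6 libraries of low Xist (2 KO and 4 WT) Acot2 was at 2.05 (unadjusted p = 0.000255, adjusted p = 0.0704, edgeR) and Acot1 at 1.48. These 6 also lack WT replicate 4. Of KO they lack, for both genes, the 2 highest libraries (replicates 1 and 6) and the 2 lowest (replicates 2 and 3), and replicate 5. Within the shallower and deeper libraries Acot2 was at 0.53 and 2.03 and Acot1 at 1.51 and 1.14. Both were positive with the Xist class as a covariate, at 1.05 and 0.96. The 2 genes lie side by side on mouse chromosome 12 and share sequence, so that 27.7% of the 50-base words of Acot2 and 19.2% of those of Acot1 occur in other genes, mainly in each other and in Acot3, Acot4 and Acot5. Their reads can thus be divided between copies.

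Promoter windows of the 2 thioesterases and of Ehhadh are shown because these genes had some of the widest spreads, and capitals mark the CCAAT box, the letters CCAAT on either strand (RefSeq, GRCm38.p6). The windows are Acot1 at chr12:84009252-84009551, plus strand, Acot2 at chr12:83987611-83987910, plus strand, and Ehhadh at chr16:21787785-21788084, minus strand.
Acot1 promoter: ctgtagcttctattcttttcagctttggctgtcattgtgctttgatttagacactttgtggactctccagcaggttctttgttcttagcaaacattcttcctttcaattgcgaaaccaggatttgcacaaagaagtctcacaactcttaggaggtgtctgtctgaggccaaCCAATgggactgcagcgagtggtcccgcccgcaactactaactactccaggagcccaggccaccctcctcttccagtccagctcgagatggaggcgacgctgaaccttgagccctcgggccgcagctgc
Acot2 promoter: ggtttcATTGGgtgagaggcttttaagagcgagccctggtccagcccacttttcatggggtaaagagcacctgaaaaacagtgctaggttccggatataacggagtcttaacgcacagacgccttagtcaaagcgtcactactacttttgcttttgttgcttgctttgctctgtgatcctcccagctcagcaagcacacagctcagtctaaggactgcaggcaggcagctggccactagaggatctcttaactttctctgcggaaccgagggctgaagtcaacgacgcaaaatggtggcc
Ehhadh promoter: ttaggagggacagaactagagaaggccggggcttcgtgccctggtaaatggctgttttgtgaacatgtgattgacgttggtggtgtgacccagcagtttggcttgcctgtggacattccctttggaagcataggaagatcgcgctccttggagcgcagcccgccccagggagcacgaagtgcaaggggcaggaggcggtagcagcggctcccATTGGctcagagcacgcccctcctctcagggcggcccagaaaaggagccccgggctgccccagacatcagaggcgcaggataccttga
The box begins at position −79 from the start of Acot1, −244 of Acot2 and −38 of Ehhadh. The windows of the 2 thioesterases, aligned end to end, matched at 59.4% of 261 aligned positions, and the longest run in common was 9 bases. Windows of 25 of the 31 members were matched in the RefSeq table, and Cyp4a10, Cyp4a14, Vnn1, Angptl4, Acaa2 and Hsd17b4 were not among them. CCAAT was in 13 of the 25 (52%), against 41.1% of 27025 genes. The half-site AGGTCA, also on either strand, was in 4 (16%), namely Acadm, Acadvl, Cpt1a and Scp2, against 18.1%. The tandem element AGGTCANAGGTCA to which PPARα and RXR bind, which holds that half-site, was in 0 of the 25 and in 0.0481% of all genes.

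**Figure D3:**
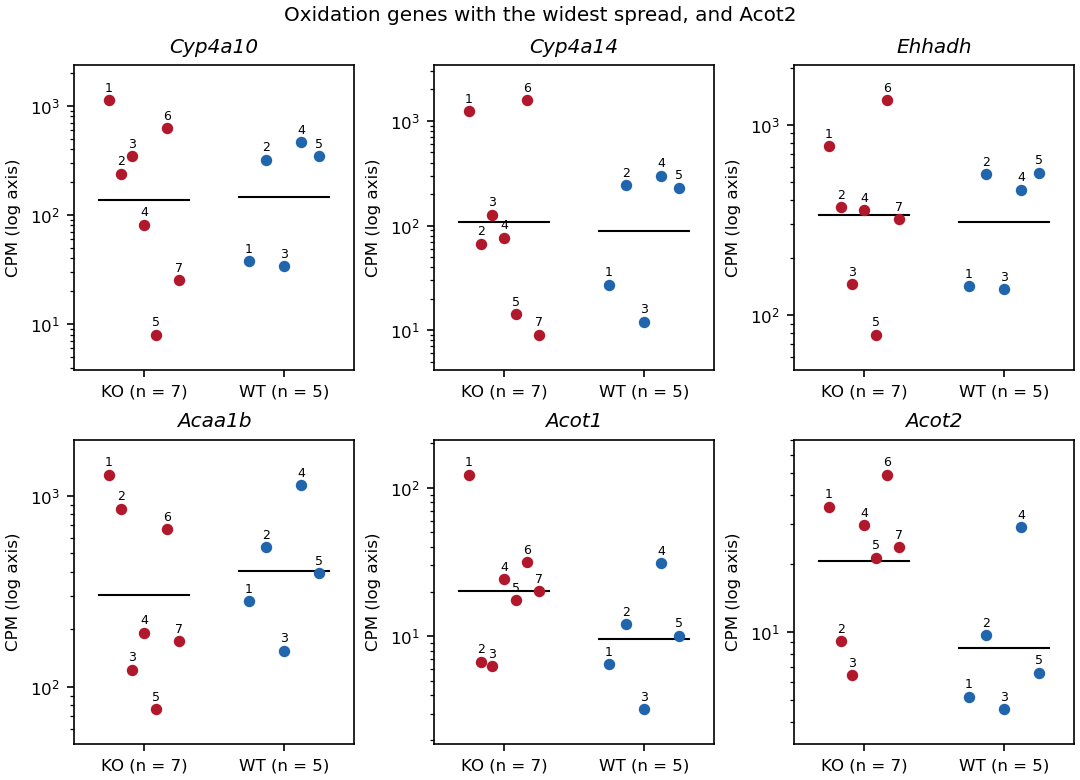
CPM (log axis) of 6 members in each KO (left) and WT (right) library, numbered by replicate, with the geometric mean as a line. KO replicates 1 and 6 are high and KO replicate 5 low for both Cyp4a genes and Ehhadh, WT replicates 1 and 3 are low in them, and for Acot2 5 of 7 KO libraries lie above 4 of 5 WT libraries.

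Cyp4a10 and Cyp4a14 hydroxylate the far end of fatty acids and are classic PPARα targets of mouse liver. They had the widest spread of all members, within both genotypes. Cyp4a14 had KO values between 9.02 (replicate 7) and 1571 CPM (replicate 6) around a median of 76.5 CPM, while WT replicates 1 to 5 had 27.3, 243, 12, 299 and 231 CPM. The highest KO library thus had 174 times the level of the lowest, and the highest WT library 24.9 times that of the lowest. Cyp4a10 had KO values between 7.99 (replicate 5) and 1117 CPM (replicate 1) around a median of 238 CPM, while WT replicates 1 to 5 had 37.7, 321, 34.1, 465 and 345 CPM. KO replicates 1 and 6 were at the top for both genes, KO replicates 5 and 7 were at or near the bottom, and WT replicates 2, 4 and 5 stood well above WT replicates 1 and 3. The same 5 libraries, KO replicates 1 and 6 and WT replicates 2, 4 and 5, held the 5 highest values of Cyp4a14 and the 5 highest of Ehhadh.

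Between genotypes, Cyp4a14 averaged 6.75 ± 2.87 log2 CPM (mean ± SD) over the 7 KO libraries and 6.47 ± 2.14 over the 5 WT libraries, which differ by 0.27 (exact permutation p = 0.855). The fitted fold change, which rests on counts and not on mean logs, was 1.44 ± 1.27, or 0.64 without KO replicate 6. For Cyp4a10 the measures parted in sign, with a difference in mean log2 CPM of −0.09 (exact permutation p = 0.943) and a fitted fold change of 0.53 ± 1.03, or −0.13 without KO replicate 1. With the Xist class as a covariate Cyp4a10 was at −1.19 and Cyp4a14 at −0.77, and within the libraries of low Xist at −1.77 and −1.55. In KO, Cyp4a10 was at 81.2 and 25.1 CPM in the 2 libraries of low Xist (replicates 4 and 7), and at 1117, 238, 344, 7.99 and 620 CPM in those of high Xist (replicates 1, 2, 3, 5 and 6). Of the 50-base words of Cyp4a10, 29.8% occur in Cyp4a31 and Cyp4a32, but 0.2% of those of Cyp4a14 occur elsewhere.

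Bdh1, which interconverts acetoacetate and β-hydroxybutyrate, had KO values between 102 (replicate 6) and 538 CPM (replicate 2) around a median of 242 CPM, while WT replicates 1 to 5 had 389, 122, 169, 138 and 169.9 CPM. WT replicate 1 stood above the other 4 WT libraries, while KO replicate 2 was the highest and KO replicate 6 the lowest of all 12. It averaged 7.93 ± 0.79 log2 CPM (mean ± SD) over the 7 KO libraries and 7.49 ± 0.65 over the 5 WT libraries, with a fitted difference of 0.48 ± 0.41 (unadjusted p = 0.260, exact permutation p = 0.319). KO replicate 6, the highest library for Cyp4a14, was thus the lowest for Bdh1. Acat1, the mitochondrial acetoacetyl-CoA thiolase, which is no member but feeds ketone synthesis, was at −0.58 ± 0.27 (unadjusted p = 0.0534). For Acat1, 4 KO libraries lay below all of WT and none above.

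Ppara, the receptor itself, had KO values between 110.1 (replicate 6) and 204 CPM (replicate 5) around a median of 132 CPM, while WT replicates 1 to 5 had 123, 90.9, 94.4, 140.5 and 121 CPM. KO replicates 2, 3 and 5 lay above every WT library and none lay below. Ppara averaged 7.16 ± 0.34 log2 CPM (mean ± SD) over the 7 KO libraries and 6.81 ± 0.27 over the 5 WT libraries, and its fitted difference was 0.36 ± 0.19 (unadjusted p = 0.0796, adjusted p = 0.395, exact permutation p = 0.0947). It was 0.26 to 0.44 with any 1 library left out. KO replicate 5 was first of the 12 for Ppara and last for Cyp4a10 and Ehhadh, while KO replicate 2 and WT replicate 4, next after KO replicates 5 and 3 for Ppara, held the 2 highest values of Vnn1. Vnn1, a pantetheinase that PPARα induces in liver, had KO values between 22 (replicate 3) and 125 CPM (replicate 2) around a median of 60.8 CPM, while WT replicates 1 to 5 had 83.1, 27.3, 17.8, 105 and 26.4 CPM. Its highest values were in KO replicate 2 and WT replicate 4, and its lowest in WT replicate 3 and KO replicate 3, at a fitted 0.33 ± 0.49. Within the deeper libraries Vnn1 was at 1.31 (unadjusted p = 0.00480, adjusted p = 0.316, edgeR), and within the shallower ones at −0.10. Angptl4, a secreted inhibitor of lipoprotein lipase, held 2 to 50 counts per library, did not pass the filter on low counts over the 12 libraries and was not tested there. Within the libraries of low Xist it passed the filter, but only through the 2 KO libraries. They had 0.892 and 0.350 CPM (replicates 4 and 7), and the WT libraries there had 0.101 to 0.205 CPM. The filter thus let Angptl4 in through the group where it was higher, and its fitted value there, 2.17, cannot be read as a test. Within the deeper libraries, too, only KO libraries carried Angptl4 past the filter. There KO replicates 4, 5 and 6 had 0.892, 0.0443 and 0.452 CPM, and WT replicates 2 and 5 had 0.205 and 0.101 CPM. Its fitted 1.59 there cannot be read as a test either. Without a filter, over all 12 libraries, it was at 0.54.

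**Figure D4:**
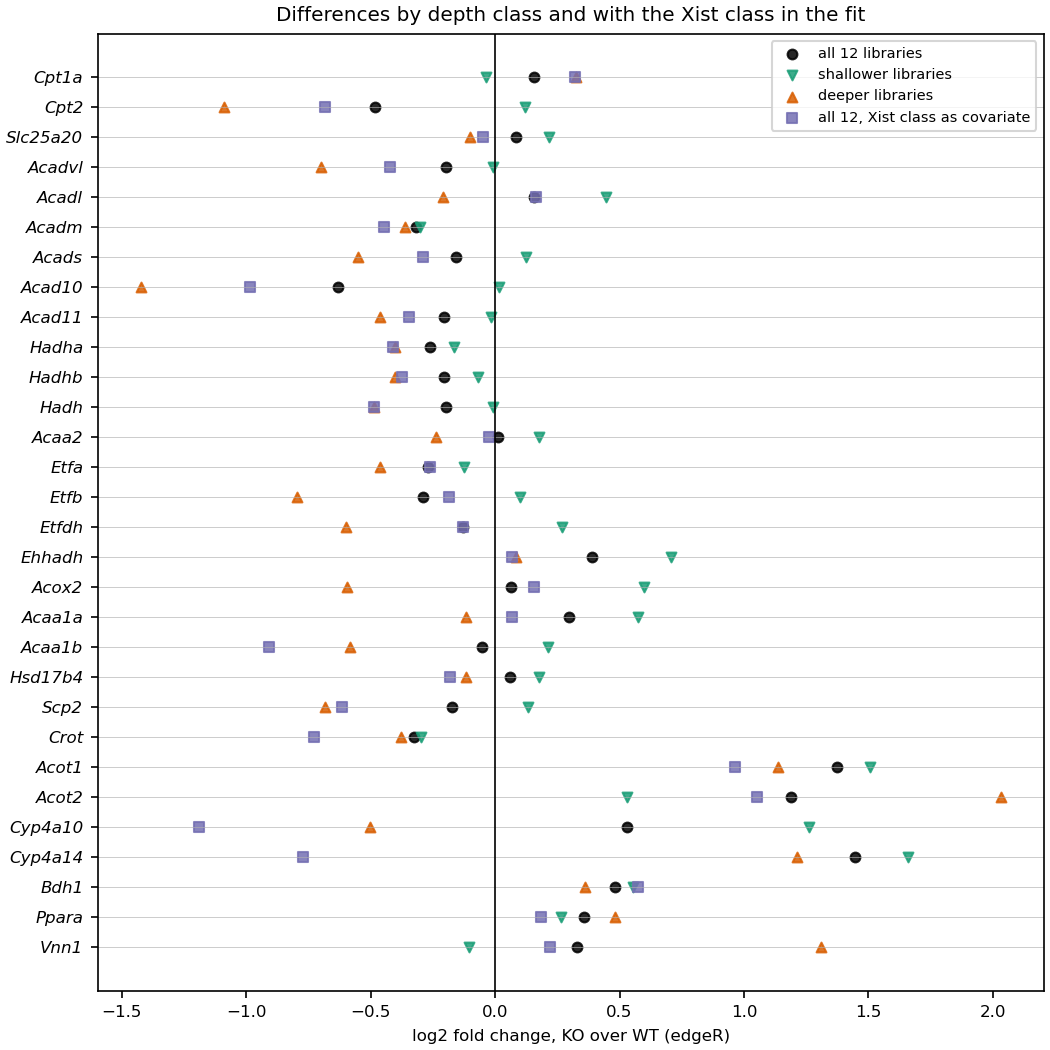
Log2 fold change of KO over WT for each member tested, from all 12 libraries, from the shallower libraries (4 KO and 3 WT), from the deeper libraries (3 KO and 2 WT) and from a fit of all 12 with the Xist class. Most triangles pointing up (deeper) lie left of 0 and most pointing down (shallower) lie right of it, while Acot1 and Acot2 are right of 0 in all 4 fits.

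The members' values depended on which libraries entered the fit. Within the shallower libraries 20 of 30 members were positive (median 0.15), and within the deeper ones 8 of 30 (median −0.39), where all genes had medians of −0.01 and 0.07. The 10 mitochondrial β-oxidation genes were positive in 4 cases in the shallower libraries (median −0.01) and in 0 cases in the deeper ones (median −0.43). A fit with genotype by depth class tested the difference between these effects. It gave 1 member an unadjusted p under 0.05, Acox2 (1.19 ± 0.38, shallower minus deeper), where 9.55% of all genes had one, and 0 members an adjusted p under 0.05 (0% of all genes, with a smallest adjusted p of 0.514 among the members). With the Xist class as a covariate, 10 of 30 members were positive (median −0.22, all genes 0.01). Neither class is a label of the study, and the genotype is unevenly spread over the Xist classes, with 5 KO and 1 WT libraries high and 2 KO and 4 WT libraries low.

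Some other genes of the pathway had unadjusted p-values under 0.05, unlike the members, as did 14.7% of all genes tested. The 94 symbols were listed from knowledge of the pathway, but with earlier results of these data known, so their counts are no independent test. Of them, 93 were in the table and 91 were tested. In edgeR's test 4 higher and 11 lower genes had an unadjusted p under 0.05 (7.25% and 7.44% of all genes tested). At an adjusted p under 0.05 there were 0, with the smallest at 0.105. Over these 91 genes 31 were positive and 60 negative (median −0.22), beside the members' 15 and 15. The list of other mitochondrial genes had 2 positive and 14 negative of 16 tested (median −0.33). It is not one of fat oxidation alone. It also holds the acetyl-CoA carboxylases Acaca (−0.39, cytosolic) and Acacb (−0.34), and enzymes for propionyl-CoA and branched acyl groups. Other peroxisomal genes had 5 and 16 of 21 (median −0.22), and uptake and activation genes 2 and 12 of 14 (median −0.26). Other PPARα targets and partners had 18 positive and 13 negative of 31 (median 0.09), and other ketone genes 4 and 5 of 9 (median −0.09). The ketone list also holds Hmgcs1 (0.05) and Acat2 (0.09), cytosolic enzymes of cholesterol synthesis, both among its 4 positive values. Fgf21, a hepatokine of the fasting response, was at 0.14 ± 0.92 with 2.07 to 41.8 CPM in KO and 0.491 to 45.4 CPM in WT.

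**Figure D5:**
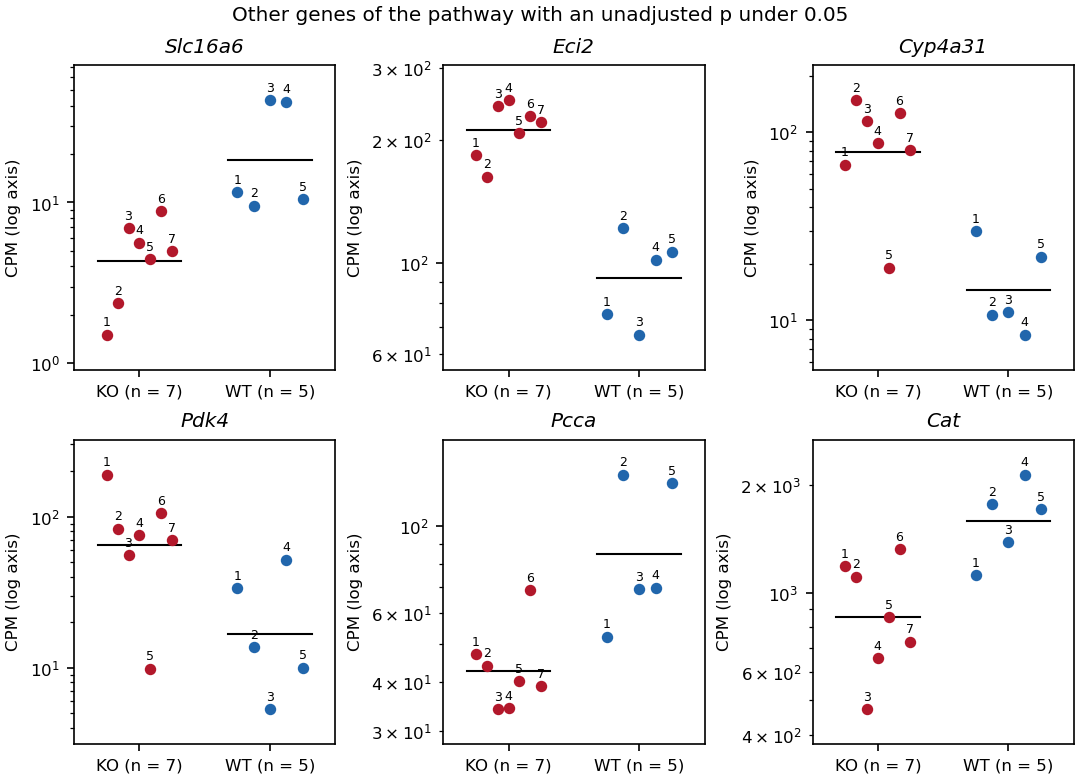
CPM (log axis) of 6 of the 15 other pathway genes with an unadjusted p under 0.05 in each KO (left) and WT (right) library, numbered by replicate, with the geometric mean as a line. Slc16a6 and Eci2 show no overlap of the groups, as did 1.21% of all genes tested, and in the other 4 genes 1 or 2 KO libraries reach into the WT range.

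Slc16a6, a monocarboxylate carrier that exports β-hydroxybutyrate from the liver in zebrafish, had KO values between 1.51 (replicate 1) and 8.87 CPM (replicate 6) around a median of 4.99 CPM, while WT replicates 1 to 5 had 11.6, 9.55, 43.1, 42.4 and 10.5 CPM. All 7 KO libraries lay below all 5 WT libraries, though KO replicate 6 came close to WT replicate 2. Its fitted difference was −2.23 ± 0.51 (unadjusted p = 0.000790, adjusted p = 0.178; exact permutation p = 0.00126, the smallest that it can give), and by depth class −3.04 (shallower) and −0.67 (deeper). Eci2, an isomerase of unsaturated chains, was at 1.18 ± 0.18, with 163 to 250.4 CPM in KO and 66.8 to 122 CPM in WT. Cyp4a31, a neighbour of Cyp4a10 in sequence, had KO values between 19 (replicate 5) and 148 CPM (replicate 2) around a median of 87.6 CPM, while WT replicates 1 to 5 had 29.7, 10.7, 11.1, 8.38 and 21.8 CPM. In 6 of 7 KO libraries it was above all WT libraries, and only KO replicate 5 was not, at 2.49 ± 0.48 (adjusted p = 0.170). WT replicate 4, the highest WT library for Cyp4a10, was the lowest for Cyp4a31. Pdk4, a pyruvate dehydrogenase kinase that PPARα induces, was at 1.87 ± 0.67, with 6 of 7 KO libraries above all WT libraries and KO replicate 5 at 9.85 CPM. Acsl4, an acyl-CoA synthetase for arachidonate, was at 0.78 ± 0.34.

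Among the 11 genes with lower values in KO were enzymes of side branches, none with an adjusted p under 0.05. Pcca, a subunit of propionyl-CoA carboxylase, was at −1.05 ± 0.26 (adjusted p = 0.187), with 34.2 to 68.7 CPM in KO and 52.2 to 135 CPM in WT and 6 of 7 KO libraries below all of WT. Mcee, which acts on the next product of propionyl-CoA, was at −0.80 ± 0.24. Acadsb and Acad8, dehydrogenases for branched acyl groups that come from amino acids, were at −0.68 ± 0.23 and −0.60 ± 0.21. Cat, the peroxisomal catalase, had KO values between 472 (replicate 3) and 1321 CPM (replicate 6) around a median of 852 CPM, while WT replicates 1 to 5 had 1121, 1773, 1387, 2141 and 1709.9 CPM, at −0.85 ± 0.27 with 5 of 7 KO libraries below all of WT. Hacl1, the lyase of peroxisomal α-oxidation, was at −1.18 ± 0.51, and Slc27a4, a fatty acid transport protein, at −0.53 ± 0.19. Pcca, Mcee, Acadsb, Acad8, Cat, Hacl1 and Slc27a4 were all negative within the shallower libraries, within the deeper ones and in the fit with an Xist term. KO libraries below all of WT numbered 6 for Pcca, 5 for Mcee and for Cat, and 4 for Acadsb and for Hacl1. They numbered 3 for Acad8 and 1 for Slc27a4. For Pcca the exception was KO replicate 6. Some marker sums had the order of Pcca, while others, such as the neutrophil and stellate cell sums, did not. In 6 of 7 KO libraries each of the next 3 sums lay below all of WT, and KO replicate 6 was the exception. The 6 periportal hepatocyte markers summed to 534 to 1359 CPM in those 6 and to 3564 CPM in the exception, and the WT sums were 1998 to 5098 CPM. The 8 endothelial markers summed to 171 to 315 CPM in the 6 and to 681 CPM in the exception, and the WT sums were 414 to 653 CPM. The 8 Kupffer cell and macrophage markers summed to 151 to 346 CPM in the 6 and to 1879 CPM in the exception, and the WT sums were 379 to 1131 CPM. All markers of the 3 lists were in the table and none was at 0 in all libraries. Their part in these values was not tested.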

How the data were processed

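Total RNA was extracted with Trizol, and RNA with an integrity number over 8.0 went into libraries, per the labels' protocols. The deposited table holds raw read counts per gene for the 12 libraries, as whole numbers that the authors did not normalize. Reads were aligned with HISAT2 to mm10, per the submitters' processing notes; no source used here gives the counting program, strand setting or annotation. Groups follow the genotype label, and replicates were numbered in accession order. KO replicate 7 has a title that starts with KP and was kept by its genotype label. No 2 libraries of a group agreed within sampling noise (smallest chi-square per degree of freedom 76.7). No label says that libraries were separate animals, so p-values reflect only the scatter among these samples, which may be technical.

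Genes were kept with filterByExpr (minimum count 10, minimum total 15), leaving 14666 genes. KO was tested against WT with edgeR 4.0.16 in R 4.3.3 (TMM, robust quasi-likelihood F-test, no covariate, Benjamini-Hochberg over all genes tested, threshold 0.05). Each SE was obtained by dividing the log2 fold change by the root of its F statistic. For log2 CPM the prior count was 2, and differences in its mean were tested over 792 regroupings (exact, two-sided; the smallest p is 0.00126). The exact test was printed for 16 members, and the smallest exact p of a member, adjusted over all genes, was 0.397. Alternatives used DESeq2 1.42.0, limma 3.58.1, other scalings and filters, the depth and Xist classes and each library left out; the genotype by depth class fit was added after seeing the data. The Xist class divides libraries at 10 CPM and the depth class lies in the gap between 23663506 and 43071365 counts. The fits were tested on simulated data.

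Exonic lengths, overlaps and the transcript words of 50 bases shared between genes come from GENCODE M21 (GRCm38, the assembly of mm10). The members and the lists were chosen with earlier results of these data known. Named are all members, Pck1, Xist, Acat1, Fgf21 and the other pathway genes with an unadjusted p under 0.05; some genes that this rule names are not reported here. Values of each WT library, and the lowest, median and highest of KO, are given for the 6 members with the widest spread. They are also given for 1 or 2 members of each role.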

Additional observations from a re-analysis of the deposited data

Results flagged for a closer look

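Among the 60 sets of values looked at (30 members in KO and in WT), 1 held a library that stood apart from its group, where about 1 in 20 would by chance. Bdh1 was at 8.60 log2 CPM in WT replicate 1, and the other WT libraries lay between 6.93 and 7.41. The gap to the nearest was 0.715 of the whole range, against a critical value of 0.71 for 5 libraries. Without WT replicate 1 the fitted difference of Bdh1 was 0.88 (unadjusted p = 0.0433, adjusted p = 0.273, edgeR's quasi-likelihood test), compared with 0.48 over all 12 libraries.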

How the results depend on the processing

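Genes past an adjusted p of 0.05 numbered 0 in edgeR's test over all 12 libraries (2155 at an unadjusted p), 1 with upper quartile scaling, 1 without a filter, 1 with at least 1 CPM in 5 libraries, 3 with the depth class as a covariate, 2 in the deeper and 34 in the Xist-low libraries. They numbered 489 in DESeq2, 2138 in limma-voom with and 5 without sample weights (the weighted fit had 4867 at an unadjusted p), and 0 to 65 with 1 library left out, the highest without KO replicate 6. Members past an adjusted p of 0.05 numbered 2 in the weighted voom fit and 0 in every other fit run. At an unadjusted p there were 2 members in DESeq2 (17.7% of all genes), 9 in voom with weights (33.2%) and 1 without (2171 of 14666 genes). There was 1 in the shallower libraries (1596 of 14363 genes) and there were 4 in the deeper ones (2174 of 16290). The Xist-low libraries had 5 (2879 of 15878 genes), namely Acad10, Crot, Acot1, Acot2 and Angptl4, the last let in by the filter only through KO. With 1 library left out there were 0 to 3 members, beside 1490 to 2802 of all genes. Log2 fold changes with the opposite sign are listed by setting; none of the reported values they stand against had an unadjusted p under 0.05, and the causes were not tested. With the Xist covariate these were Slc25a20 −0.049, Acaa2 −0.023, Hsd17b4 −0.18, Cyp4a10 −1.19 and Cyp4a14 −0.77. In the Xist-low libraries these were Acaa2 −0.18, Ehhadh −0.024, Acox2 −0.078, Hsd17b4 −0.13, Cyp4a10 −1.77 and Cyp4a14 −1.55. In the deeper libraries these were Slc25a20 −0.10, Acadl −0.21, Acaa2 −0.24, Acox2 −0.60, Acaa1a −0.12, Hsd17b4 −0.12 and Cyp4a10 −0.50. With weighted voom these were Cpt1a −0.017, Slc25a20 −0.017, Acaa2 −0.065, Ehhadh −0.23, Acox2 −0.11, Hsd17b4 −0.011, Cyp4a10 −0.60 and Cyp4a14 −0.69. In the shallower libraries these were Cpt1a −0.038, Cpt2 0.12, Acads 0.13, Acad10 0.017, Etfb 0.10, Etfdh 0.27, Acaa1b 0.21, Scp2 0.13 and Vnn1 −0.10. With upper quartile scaling these were Acaa2 −0.0057. With 1 library left out the sign changed for Slc25a20 −0.077 to 0.21, Acaa2 −0.052 to 0.069, Etfdh −0.26 to 0.042, Ehhadh −0.12 to 0.59, Acox2 −0.037 to 0.22, Acaa1b −0.52 to 0.50, Hsd17b4 −0.059 to 0.18 and Cyp4a10 −0.13 to 0.91 (lowest to highest). The difference in mean log2 CPM of Cyp4a10 was −0.09 with TMM scaling and 0.048 with scaling by total count. No paired analysis was possible because the labels give the groups no shared replicate numbers. With 7 and 5 libraries and a common biological coefficient of variation of 0.492, the SE of a log2 fold change lay between 0.17 and 1.27 over the members, which limits the size of difference that could be detected.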

Other observations

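Cyp4a12a and Cyp4a12b, which are male-biased in mouse liver, had an unadjusted p under 0.05 in edgeR's test without separate groups. Cyp4a12a had KO values between 0.0221 (replicate 5) and 5.88 CPM (replicate 6) around a median of 0.0962 CPM, while WT replicates 1 to 5 had 0.0533, 4.28, 0.0702, 105 and 7.84 CPM, with a fitted difference of −4.39 ± 1.64 (adjusted p = 0.265). Cyp4a12b had KO values between 0 (replicate 2) and 7.90 CPM (replicate 6) around a median of 0.0962 CPM, while WT replicates 1 to 5 had 0.0533, 36, 0, 36.4 and 25 CPM, at −3.85 ± 1.57 (adjusted p = 0.295). The exact permutation p of the 2 genes was 0.150 and 0.148. WT replicate 4, with 123 CPM of Xist, had the highest value of both genes, and the 4 WT libraries of low Xist held both low and high values.

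The ratio of Cyp4a14 to Cyp4a10 CPM ran from 0.281 in KO replicate 2 to 2.53 in KO replicate 6 and from 0.352 in WT replicate 3 to 0.759 in WT replicate 2. That of Acaa1b to Acaa1a ran from 0.648 in KO replicate 5 to 4.50 in KO replicate 2 and from 1.09 in WT replicate 3 to 5.79 in WT replicate 4.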
